A study of Mus musculus with 10 samples.

Results

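The probe sets described here are 5 of the 96 that the authors listed as different between Evf2TS/TS and Evf2+/+ brain tissue, out of 45037 probe sets on the array that are not controls. They were taken by position: the first alignment in the list starts on chromosome 17 between 34000000 and 36200000, in the mouse major histocompatibility complex (MHC), called H2. They are 1447894_x_at (Vps52), 1440450_at (Gm10501), the unnamed 1441797_at and 1440305_at, and 1449556_at, which the list assigns jointly to C920025E04Rik, H2-T23 and LOC100505163. The list itself rests on mutant against wildtype signal, so the values and calls for the difference between genotypes at these probe sets are a description and no independent test.

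Expression was measured in medial ganglionic eminence (MGE), the part of the embryonic ventral forebrain where cortical interneurons are born, at E13.5. The mutant Evf2TS/TS pools (5, of which 2 were female and 3 male) lack the long non-coding RNA Evf2, and the wildtype Evf2+/+ pools (5, of which 3 were female and 2 male) carry it. Each pool held 4 MGE from 2 embryos, and all pools share a mixed background of 129Sv, Bl6 and Fvbn strains, per the labels. The labels do not give the H2 type of any pool or of the parents, so whether it varied with the Evf2 genotype was not tested.

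The MHC is a dense gene cluster best known for the class I and class II molecules that show peptides to lymphocytes, and it is among the regions of the mouse genome that vary most between inbred strains. Many of its genes have no immune role. Vps52 encodes a subunit shared by the GARP and EARP complexes, which tether vesicles coming from endosomes at the trans-Golgi network and at recycling endosomes. H2-T23 encodes Qa-1, a non-classical class I molecule that shows signal peptides of other class I chains to inhibitory receptors of natural killer cells. In neural tissue class I genes are in general weakly expressed.

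Among the arrays, mutant replicate 5 stood apart with a score of 61.7 on the first principal component (19.4% of the variance), while the remaining mutant pools scored 0.197 to 2.34 and 4 wildtype pools -9.53 to -3.12. Wildtype replicate 3 also stood apart, at -39.5, with 16 probe sets more than 2-fold below every other array. Mutant replicate 5 had 298 probe sets more than 2-fold below every other array, and 0 of the 5 block members were among them. Evf2 itself read 9.47 to 58.1 signal units in mutant pools and 453 to 901 in wildtype pools, the direction the genotype labels give. Names were looked up in the authors' list alone, where 1 of 10 MGE markers (Dlx6) had a named probe set. Dlx6 read 558 to 994 in mutant and 273 to 360 in wildtype pools. Being listed for its difference between genotypes, it gives no check of the tissue, and the other MGE markers were not read. Array medians lay between 23.5 and 29.3 signal units, which gives a scale for the dim values below. The number of arrays limits the precision.

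In gene order the block runs from Vps52, at the edge of the H2-K region, to the H2-T genes. RefSeq (GRCm38.p6, used for order and names only) places B3galt4 and Rps18 before Vps52 and H2-K2 soon after it, and counts 182 genes between Vps52 and H2-T23, of which 116 are protein-coding and 25 carry an H2- symbol. In the list, whose build is not named, the Vps52 probe set aligned to chromosome 17 at 34103775 to 34103979 on the plus strand, and Gm10501 at 35116381 to 35117002 on the minus strand. The unnamed 1441797_at (36133449 to 36133863) and 1440305_at (36136010 to 36136696) lay on the plus strand only 2.15 kb apart. The joint H2-T23 probe set followed 30.1 kb later at 36166818 to 36169627 on the minus strand. The whole block spans 2.07 Mb, and the alignments of its members do not overlap in the list.

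**Figure D1:**
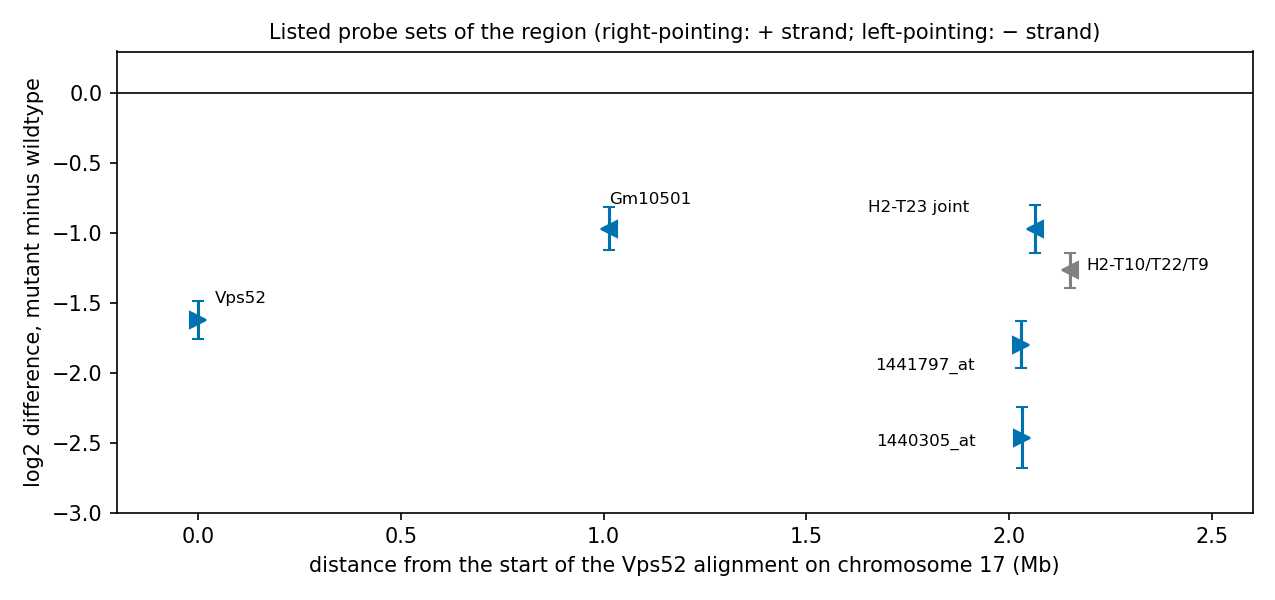
Log2 difference between mutant and wildtype pools (vertical axis, bars are SE) against distance in Mb from the start of the Vps52 alignment. Blue triangles are the 5 block members and the grey one the listed probe set just outside the window, each pointing along its strand; all lie below 0, with 1440305_at lowest at -2.46.

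Of the members, 2 have an annotated start in the RefSeq promoter table. Their windows of 300 bases around the start are shown to let the sequences at the ends of the block be compared.
Vps52, chr17:33955550-33955849, plus strand, the first of 3 listed starts: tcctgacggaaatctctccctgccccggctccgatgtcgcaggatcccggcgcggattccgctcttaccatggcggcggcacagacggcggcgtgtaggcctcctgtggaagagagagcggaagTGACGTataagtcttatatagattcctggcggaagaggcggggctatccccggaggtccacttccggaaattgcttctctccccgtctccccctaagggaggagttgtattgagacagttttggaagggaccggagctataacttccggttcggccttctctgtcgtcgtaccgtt
H2-T23, chr17:36032652-36032951, minus strand: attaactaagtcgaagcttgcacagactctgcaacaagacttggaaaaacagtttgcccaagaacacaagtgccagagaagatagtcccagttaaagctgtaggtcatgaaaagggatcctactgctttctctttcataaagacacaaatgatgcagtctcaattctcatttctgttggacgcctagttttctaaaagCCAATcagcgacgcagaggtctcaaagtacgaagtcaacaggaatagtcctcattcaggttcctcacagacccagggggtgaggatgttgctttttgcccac
Capitals mark matches on either strand. The motifs searched were CCAAT (the CCAAT box), TATAAA (the TATA box), TAATTA (a core bound by homeodomain proteins) and TGACGT (a core of cyclic AMP response elements). The Vps52 window held 1 match to TGACGT, which 7.51% of 32851 promoter windows held. The H2-T23 window held 1 match to CCAAT, which 37.4% of windows held. The letters of TATAAA (13.6% of windows) and of TAATTA (5.29%) were in neither. No motif was shared between the windows, and they also differed in composition, at 58.7% G and C for Vps52 and 44.3% for H2-T23, with a median of 52.7% over all windows. A match is a description of these letters and not a binding site.

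The 5 members were lower in mutant MGE by 1.96- to 5.52-fold on the log2(signal + 16) scale, and at each of them the genotypes did not overlap. Of all 45037 probe sets, 1.24% had every mutant pool below every wildtype pool, and 3.07% were free of overlap in either direction. In the fit over all probe sets (limma with genotype and sex, adjusted p under 0.05) 5 of 5 members were called, against 0.535% of all probe sets (0.233% lower in the mutant). The call count was 3 without mutant replicate 1, mutant replicate 2 or wildtype replicate 4, where Gm10501 and the joint H2-T23 probe set were not called. Since the list was made from this contrast, nothing is read from these counts. The median log2 difference was -1.62 over the members and 0.02 over all probe sets. In bulk tissue, fewer cells of a type and less RNA per cell cannot be told apart. Probe sequences were not used here, so whether strain variants under the probes change the signal without a change in RNA was not tested.

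Vps52, the tethering-complex subunit, was above the array median in all 10 pools. It read 45.1, 41.4, 35.96, 60.3 and 45.4 signal units in mutant replicates 1 to 5, against 153, 178, 145, 227 and 151 in wildtype replicates 1 to 5. The lowest wildtype pool stood 2.40 times above the highest mutant pool, and the top pool of either genotype was replicate 4, a male pool in both. The mean was 45.6 ± 9.06 in mutant and 171 ± 33.8 in wildtype pools (SD, n = 5 each), a log2 difference of -1.62 ± 0.14 (SE). The spread relative to the mean was alike, at 19.9% in mutant and 19.8% in wildtype pools. The suffix _x_at marks a probe set whose probes may also bind other transcripts, and the 205 bases of its alignment are the shortest of the block, so whether the value describes Vps52 as a whole was not tested. Of the other GARP and EARP subunits (Vps51, Vps53, Vps54 and Vps50) none had a named probe set in the list, so of 5 genes in that list 1 was read.

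Gm10501 was dim in both genotypes. It read 1.03, 0.747, 8.63, 2.20 and 6.84 in mutant pools, against 18.7, 33.3, 21.4, 23.2 and 15.5 in wildtype pools. All 5 mutant pools and 4 of the 5 wildtype pools lay below the median of their array, and the groups were apart by 1.79 times at their nearest pools. The log2 difference was -0.97 ± 0.15 (SE), and its size is set by the pseudocount (-0.35 at pseudocount 64 and -2.70 at pseudocount 1). The Entrez number of this predicted gene had no match in RefSeq, so the symbol is that of the list.

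The neighbouring unnamed probe sets showed the widest gaps of the block. The probe set 1440305_at read 11.3, 2.23, 2.34, 7.40 and 6.14 in mutant pools, against 92.2, 92.6, 101, 185 and 67.2 in wildtype pools, so that its lowest wildtype pool was 5.96 times its highest mutant pool. Its log2 difference was -2.46 ± 0.22 (SE; -1.28 at pseudocount 64 and -4.10 at pseudocount 1). All mutant pools were below the median of their array and all wildtype pools above it. The probe set 1441797_at read 19.3, 16.9, 18.2, 16.3 and 20.6 in mutant pools, against 95.9, 111, 77.3, 163 and 77.0 in wildtype pools, a log2 difference of -1.80 ± 0.17 (SE; -1.03 at pseudocount 64 and -2.43 at pseudocount 1). Here the mutant pools varied little (9.51% of the mean) while the wildtype pools varied by 33.7%, and in both probe sets wildtype replicate 4 was highest and wildtype replicate 5 lowest.

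The joint H2-T23 probe set had the narrowest gap. It read 17.7, 21.9, 22.3, 26.0 and 18.3 in mutant pools, against 42.6, 54.9, 90.5, 67.4 and 40.1 in wildtype pools, with the nearest pools 1.55 times apart. The log2 difference was -0.97 ± 0.17 (SE), with -0.51 at pseudocount 64 and -1.38 at pseudocount 1, where it was not called at either. Its highest wildtype pool was replicate 3, not replicate 4. RefSeq matched 2 of its 3 Entrez numbers, to H2-T23 and to H2-T-ps, for which it gives C920025E04Rik as a synonym, and the value belongs to none of the genes singly.

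**Figure D2:**
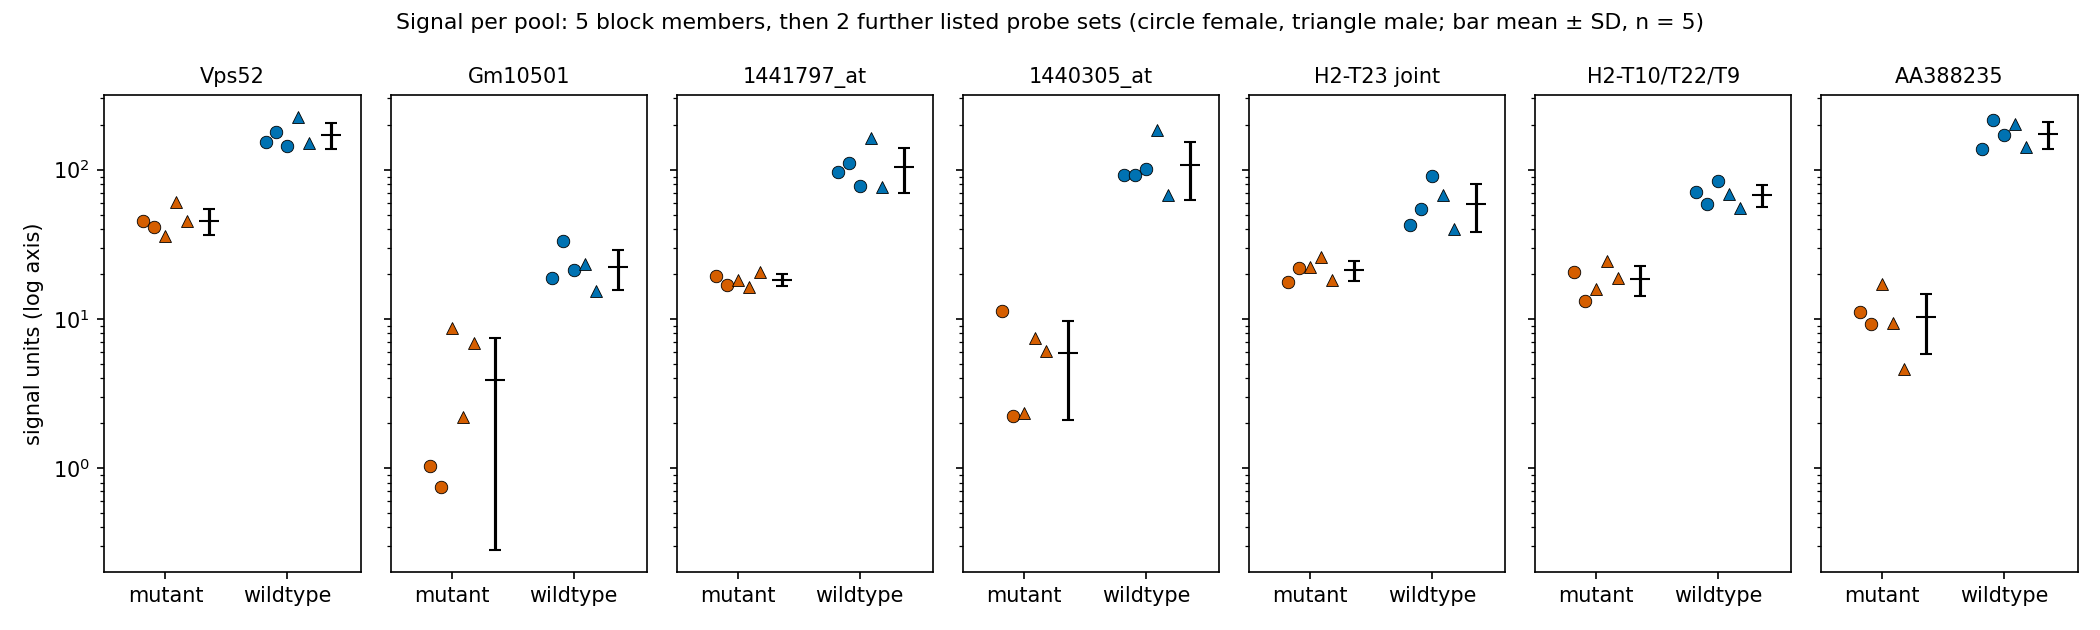
Signal units (log axis) in each pool for the 5 members and 2 further listed probe sets of the region, mutant pools left of wildtype pools in each panel; circles are female and triangles male pools, and bars are mean ± SD (n = 5). The genotypes do not overlap in any panel, and Vps52 mutant pools sit between 35.96 and 60.3.

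Just outside the window on the far side lay 1449875_s_at, which the list assigns to H2-T10, H2-T22 and H2-T9, non-classical class I genes whose products H2-T10 and H2-T22 are bound by some γδ T cell receptors. Its first alignment starts at 36254034, and its second alignment, at 36175353, falls inside the window. It read 20.5, 13.2, 15.9, 24.3 and 18.7 in mutant pools, against 70.4, 58.5, 84.2, 68.4 and 55.4 in wildtype pools, a log2 difference of -1.27 ± 0.13 (SE). This probe set and the joint H2-T23 entry were the only listed ones for the 17 class I heavy-chain genes looked up. Of these genes, 4 had a joint and 0 a single listed probe set. Names came from the list alone, so class I probe sets outside it were not read. On the near side, the closest listed probe set on chromosome 17 was that of Eme2, an endonuclease subunit of DNA repair, at -9.08 Mb from the start of Vps52. It read 10.3 to 42.4 in mutant pools and 52.7 to 133 in wildtype pools. All 7 listed probe sets with a first alignment on chromosome 17 were lower in the mutant, against 61 lower and 35 higher in the whole list.

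A further listed probe set belongs to the region by gene order although the list gives it no alignment. Of 7 listed probe sets without one, 3 had 1 current symbol, and 1 of these, AA388235 (1437441_at), lies in RefSeq between H2-K2 and H2-K1, the third gene after Vps52. It read 11.1, 9.30, 17.05, 9.38 and 4.65 in mutant pools, against 138, 215, 170, 203 and 142 in wildtype pools. The nearest pools of the genotypes were 8.09 times apart, a wider gap than at any of the 5 members, and the log2 difference was -2.84 ± 0.16 (SE). Its place was looked up after its values were seen.

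In the authors' deposited table, made from another summary of the same arrays, the members had log2 fold changes of -1.86 (Vps52), -1.45 (Gm10501), -2.46 (1441797_at), -2.69 (1440305_at) and -1.88 (joint H2-T23). The median over the members in the authors' deposited table was -1.88, and -1.72 over the other 56 listed probe sets that were lower. The order of the members differed between the summaries, with the joint H2-T23 entry beyond Vps52 in the authors' deposited table and well short of it on the log2(signal + 16) scale. The added 16 lowers the differences of dim probe sets more. Without it the ratio of mean signals, wildtype over mutant, was 2.78 for the joint H2-T23 entry and 3.74 for Vps52.

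Other genes of the region and of antigen presentation were looked up by name. None of 14 genes of class I antigen processing, 11 of MHC class II and 18 neighbours of Vps52 in the H2-K region had a named probe set, because names came from the list alone, so these values show the listed probe sets and not the region between them. Likewise 0 of 7 microglia and leukocyte, 0 of 4 meningeal and 0 of 5 erythroid markers were named. Of 7 endothelial markers 1 was, Vwf (von Willebrand factor), at 45.1 to 65.7 in mutant and 15.5 to 38.2 in wildtype pools. That is the opposite direction to the block, but Vwf too was in the list for its difference between genotypes. In 4 of 5 wildtype pools it lay below the median of the array. The part of cell composition in the block's values was not tested.

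Whether the members move together was asked within each genotype, after the genotype mean was taken from every pool. All 10 pairs of members had a positive correlation over the 10 pools, from 0.0401 to 0.783 with a median of 0.295. Each r pools both genotypes, and neither was correlated alone. At 1441797_at the deviations ran from -0.08 to 0.10 in mutant and from -0.33 to 0.61 in wildtype pools. At Vps52 the ranges were closer, -0.23 to 0.32 and -0.20 to 0.40. Where wildtype deviations are wider, r reflects the wildtype pools more. By exact permutation within genotype (2-sided, 14400 orders), 0 of 10 pairs passed after adjustment over the pairs, and 2 had an unadjusted p under 0.05. For rank correlation these counts were 0 and 1. The median r was 0.626 without wildtype replicate 3, an array that stood apart, and 0.112 without wildtype replicate 5. Without mutant replicate 5, the array that stood apart most, it was 0.322.

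The 3 highest r were those among Vps52 and the unnamed pair. Vps52 and 1440305_at had r = 0.746 (exact permutation p = 0.0331, adjusted p = 0.175) and rho = 0.685 (exact p = 0.0473, adjusted p = 0.403). Vps52 and 1441797_at had r = 0.697 (exact p = 0.0406, adjusted p = 0.175) and rho = 0.588 (exact p = 0.121, adjusted p = 0.403). The unnamed neighbours had r = 0.783 with each other (exact p = 0.0526, adjusted p = 0.175) and rho = 0.515 (exact p = 0.165, adjusted p = 0.412). Without wildtype replicate 4 the r of Vps52 and 1440305_at was 0.433, that of Vps52 and 1441797_at 0.272 and that of the unnamed neighbours 0.291. Leaving out the 2 pools farthest from the median of Vps52, mutant replicate 4 and wildtype replicate 4, gave 0.449 for Vps52 and 1440305_at and 0.677 for Vps52 and 1441797_at. For the unnamed neighbours those pools were wildtype replicates 4 and 5, and r without them was 0.0634, so that relation rests on these pools. Gm10501 and 1441797_at went the other way, with r = 0.383 over all pools, rho = 0.612 and r = 0.621 without wildtype replicate 4. The joint H2-T23 probe set had r of 0.0725 to 0.387 with the others, and its correlation with 1441797_at was -0.316 without wildtype replicate 4.

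Wildtype replicate 4 lay above the wildtype mean at 5 of 5 members (mean deviation 0.40 on the log2 scale), and wildtype replicates 1 and 5 lay below it at all 5 (-0.15 and -0.33). Among mutant pools the mean deviations were smaller, from -0.12 in replicate 2 to 0.08 in replicate 4, and no pool was above or below the mutant mean at all 5 members. Wildtype replicate 4 also had the highest Evf2 signal, 901 against 453 to 608 in the other wildtype pools.

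**Figure D3:**
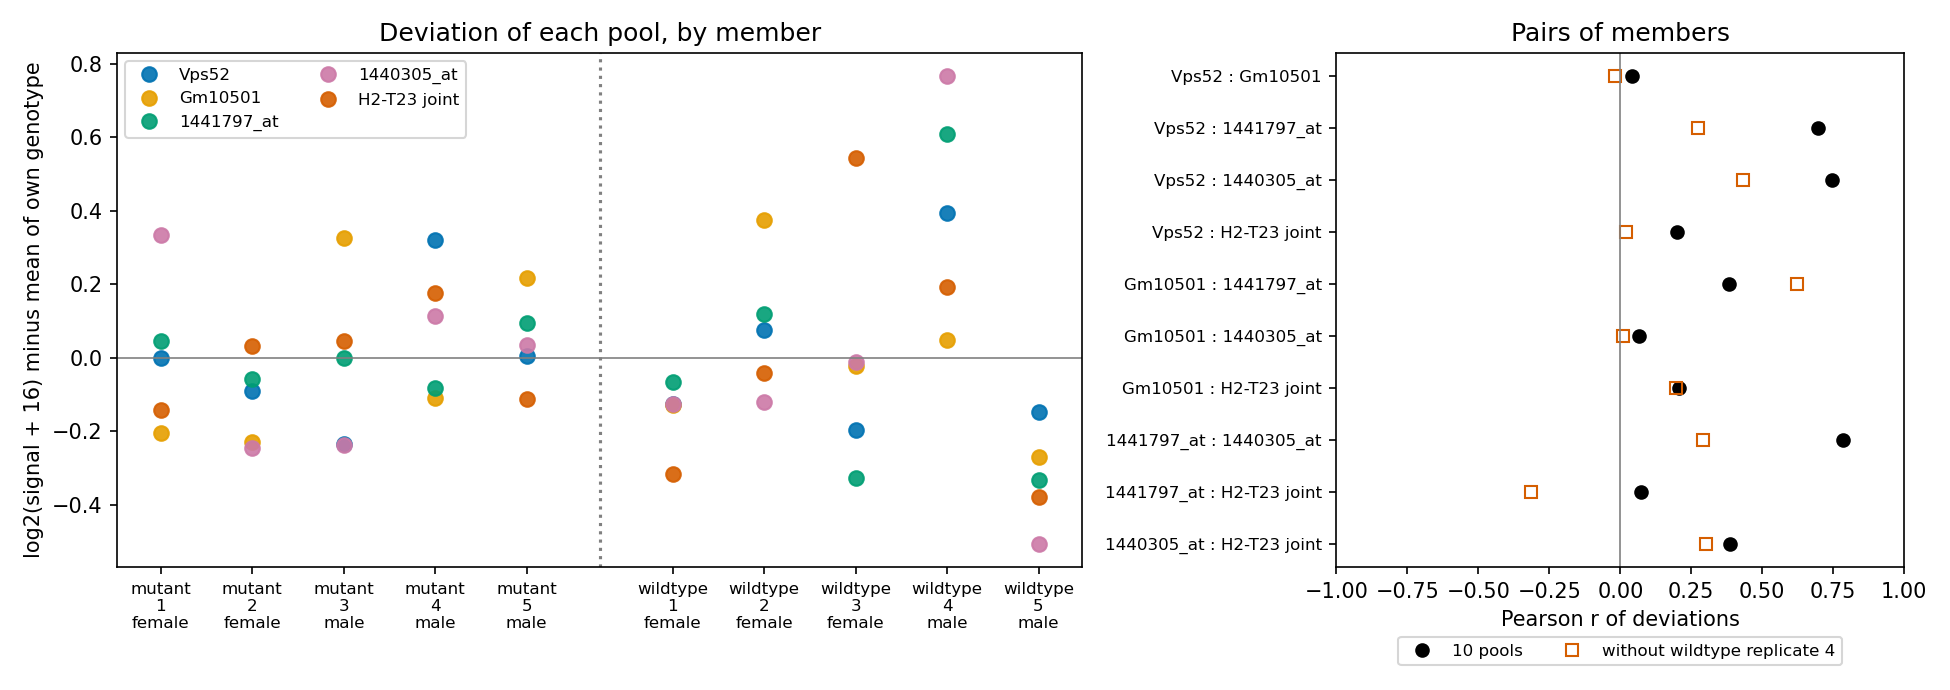
Left, deviation of each pool from the mean of its own genotype (log2 scale) for each member. Right, Pearson r of these deviations for the 10 pairs, over 10 pools (filled circles) and without wildtype replicate 4 (open squares); wildtype replicate 4 lies above 0 at 5 of 5 members, and the 3 highest r are lower without it.

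The 5 singly named listed genes whose deviations were most like the mean of the members over 10 pools were Mapk8 on chromosome 14 (r = 0.587), Ssu72 on chromosome 4 (0.572), Paip1 on chromosome 13 (0.534), AA388235 (0.534) and Evf2 (0.496). The median over 57 such genes was 0.151 and that over all other probe sets -0.0177. Of all other probe sets 3.08% reached the r of Mapk8 and 5.82% that of Evf2, so likenesses of this size also occur outside the list. Whether listed genes are more like the members than the rest of the array was not tested.

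Each mutant pool was then placed between the genotypes at each probe set, with 0 where the remaining mutant pools average and 1 for the wildtype average. On this measure mutant replicate 4 had a median position of 0.0577 over the 5 members and 0.403 over the other 91 listed probe sets. It was the mutant pool nearest to wildtype at 2 of 5 members and at 75 of 91 others. The median positions of the other mutant pools at the block were 0.000107 (replicate 1), -0.0727 (replicate 2), -0.000417 (replicate 3) and 0.0175 (replicate 5). Within the block, mutant replicate 4 lay towards wildtype at Vps52 (0.240) and the joint H2-T23 probe set (0.217), near the other mutant pools at 1440305_at (0.0577) and on the far side at 1441797_at (-0.0583) and Gm10501 (-0.148). Of the further listed probe sets of the region, its position was 0.217 at H2-T10, H2-T22 and H2-T9 and -0.0154 at AA388235. The difference between the block and the rest of the list was not tested, and the list was chosen on the spread of these same pools.

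**Figure D4:**
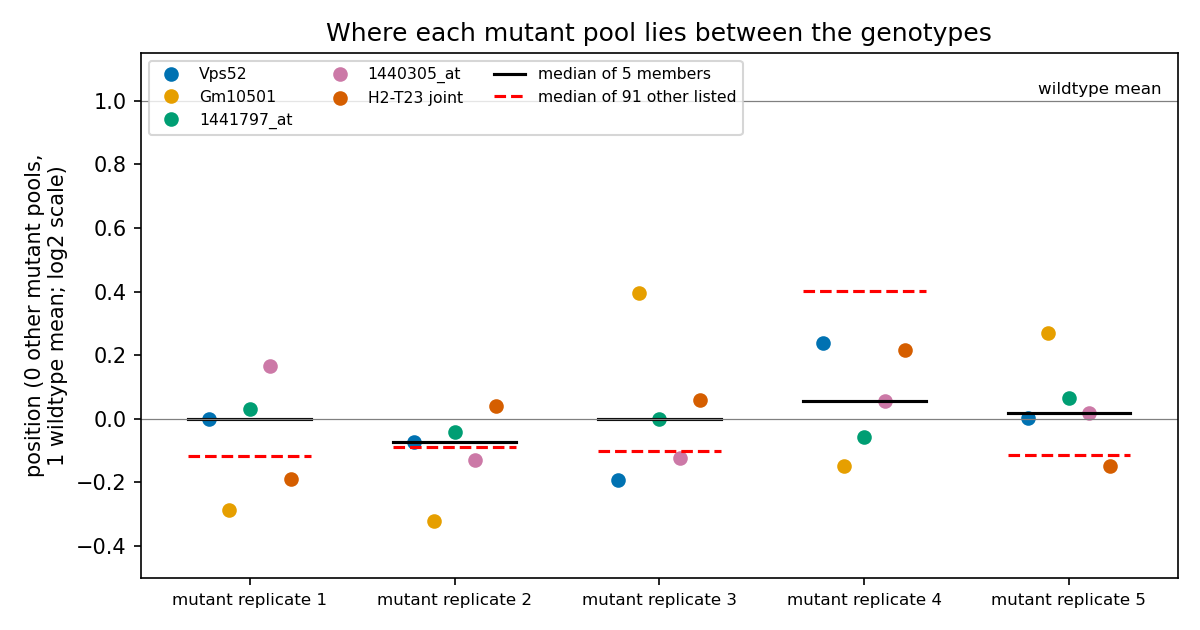
Position of each mutant pool between the genotypes (0 where the remaining mutant pools average, 1 for the wildtype average) for each member, with the median of the 5 members (black) and of 91 other listed probe sets (red, dashed). In mutant replicate 4 the red line is at 0.403 and the black line at 0.0577.

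Sex, which the rule did not use, gave no call at any member. By limma 0 of 5 members differed between males and females at an adjusted p under 0.05, and 0 at an unadjusted p under 0.05, where 0.0266% and 4.91% of all probe sets did. The log2 difference, male minus female, was 0.14 for Vps52 (95% interval -0.16 to 0.45) and 0.07 for 1440305_at (-0.41 to 0.55). It was 0.12 for 1441797_at (-0.25 to 0.49), 0.09 for Gm10501 (-0.25 to 0.43) and -0.03 for the joint H2-T23 probe set (-0.41 to 0.35). These intervals leave room for differences well beyond the values shown. In this fit they do not reach the difference between genotypes at the same probe set. With the replicate block the male minus female value of the joint H2-T23 probe set was -0.62, outside its interval here. Its genotype difference in that setting was -0.85, and neither was called.

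The difference between genotypes was also set against sex. Vps52 differed by -1.69 ± 0.20 in males and -1.56 ± 0.20 in females (SE), and 1440305_at by -2.61 ± 0.32 in males and -2.32 ± 0.32 in females. Gm10501 differed by -0.69 ± 0.19 in males and -1.24 ± 0.19 in females, the widest gap of the 5, at 0.55 (95% interval -0.06 to 1.16; limma adjusted p = 0.999, unadjusted p = 0.072). By limma the difference between the sexes was called at 0 of 5 members (0 at an unadjusted p under 0.05), and at 0% of all probe sets (3.87% at an unadjusted p under 0.05). With 2 or 3 pools of each genotype and sex, the intervals are wide, and these p-values do not show that the sexes are alike.

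**Figure D5:**
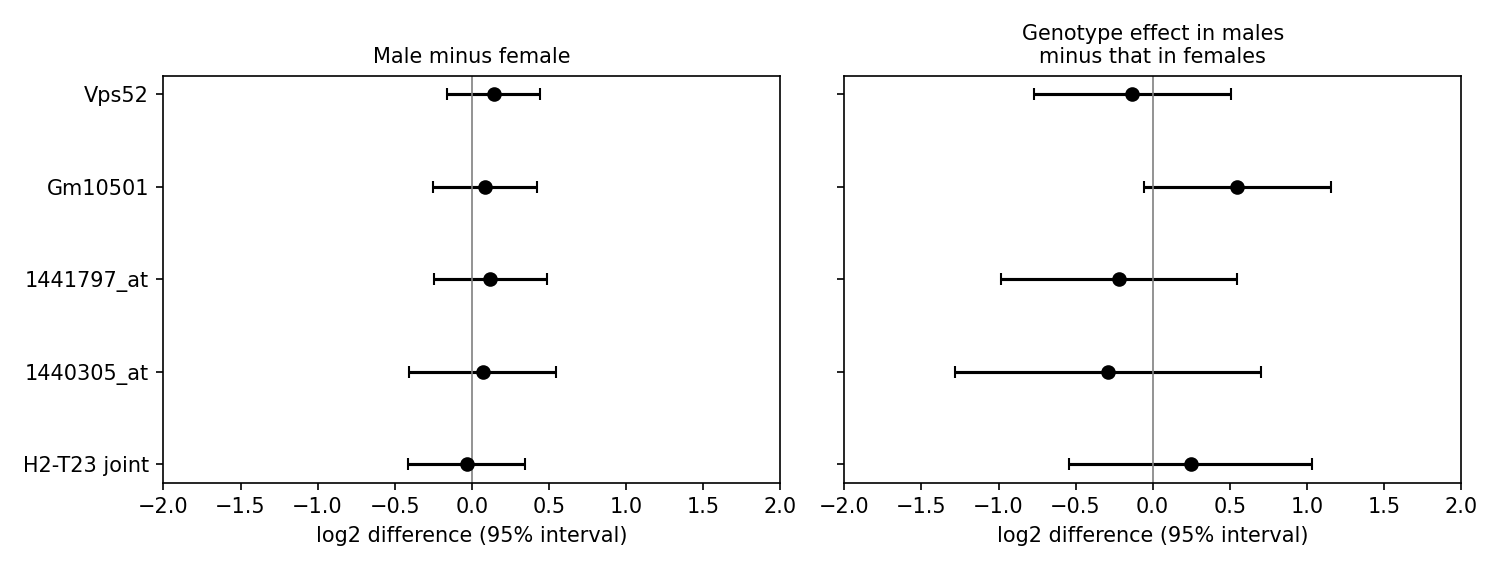
Log2 difference with 95% interval at each member, for males minus females (left) and for the genotype difference in males minus that in females (right). All 10 intervals include 0; that of Gm10501 on the right runs from -0.06 to 1.16.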

How the data were processed

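Biotin-labelled cRNA from 10 pools was read on Affymetrix Mouse430_2 arrays, per the labels and file headers. The authors deposited 1 linear intensity per probe set and array; which software summarised and scaled them, and the build of the alignments, were not given in the sources used here. Per the file headers, the authors' list was limited by a corrected p-value of 0.05 and a 2-fold change; the authors gave in it a ratio (absolute fold change), a signed fold score, a log2 fold change and an intensity per genotype.

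Of 45101 probe sets 64 controls were left out. Values were taken as log2(value + 16), which understates changes of dim probe sets, and fitted with limma (version 3.58.1, R 4.3.3) on all 45037, with genotype and sex as terms, Benjamini-Hochberg over all of them. Genotype differences within each sex used separate means for the 4 combinations. The fit and the permutation test were tested on simulated data. Pools are separate samples, so p-values measure the spread between pools. Members, lists and tests were chosen with earlier results of these data known. All members are named, with the nearest listed probe sets on chromosome 17, Evf2, and the 5 singly named listed genes most like the members. Names came from the list, updated through Entrez numbers with RefSeq. Alternatives changed pseudocount, filter, scaling, variance model, array weights, sex term, replicate block and members, and left out each pool in turn.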

Additional observations from a re-analysis of the deposited data

Results flagged for a closer look

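Extreme pools were sought by Dixon's ratio, the gap to the next pool over the range of the 5, with a limit of 0.71. Of 10 sets of 5 pools (5 members in each genotype), 1 had an extreme pool, and about 1 in 20 would by chance. The unnamed 1440305_at had 185 signal units in wildtype replicate 4, with the remaining wildtype pools between 67.2 and 101. This pool passed the limit only narrowly. The same pool was the highest wildtype pool at Vps52 (227, against 145 to 178) and at 1441797_at (163, against 77.0 to 111), where its distance from the others did not reach that limit.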

How the results depend on the processing

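The members were chosen on the genotype contrast, so their calls in it are a description and show no robustness. All stayed lower in the mutant in every setting run. Vps52, 1441797_at and 1440305_at were called in each of them; the call of Gm10501 ended in 5 of 18 settings and that of the joint H2-T23 probe set in 9 of 18. The count of called members, 5 of 5, was 3 at pseudocount 1 and 3 of the 3 members tested with a mean signal of at least 50, where the 2 dimmer ones were not tested. Leaving out each pool gave 3 to 5, with 3 without mutant replicate 1, mutant replicate 2 or wildtype replicate 4. The pools share only a number between genotypes (correlation of same-numbered deviations 0.00604 to 0.0404, and 2 of 10 pools correlate best with their own number); with the replicate block 3 members were called. Over the whole array the 241 calls were 55 at pseudocount 1, 39 with the replicate block, 375 with array weights and 72 to 259 when each pool was left out. For sex and for the difference between sexes the count at an adjusted p under 0.05 was 0 in every setting run. At an unadjusted p under 0.05 (limma) it was 1 for sex with the replicate block. For the difference between sexes this unadjusted count was 1 at pseudocount 1 and 2 without wildtype replicate 5. It was also 1 without mutant replicate 4, wildtype replicate 1 or wildtype replicate 4. The uncalled male minus female value of the joint H2-T23 probe set, -0.03, was -0.62 with the replicate block. That of 1440305_at, 0.07, was -0.28 with the replicate block and -0.21 without wildtype replicate 4. The median correlation of 0.295 ran from 0.112 to 0.626 when each pool was left out and was 0.179 at pseudocount 1. The median position of mutant replicate 4 at the block was 0.143 at pseudocount 1, and that of mutant replicate 5 was 0.0739 at pseudocount 1 and 0.0734 with median-centred arrays; the cause was not tested. Chosen after seeing the data, adding the probe set just outside the window gave 6 of 6 called and a median correlation of 0.264, and adding AA388235 gave 6 of 6 and 0.383.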
